A study of Mus musculus with 9 samples.

Results

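TRIM proteins form a family of ubiquitin ligases that carry a RING domain, B-box zinc fingers and a coiled coil, and that differ mainly in the domain at the end of the protein. Some members are switched on by interferon and act in antiviral defence: they bind viral particles, or tag sensors and adaptors of innate immunity with ubiquitin. Others bind chromatin, or work in nerve, muscle or red cell precursors. The family was taken here as every probe of the Illumina mouse array whose platform symbol is Trim followed by a number, which gave 110 of 45281 probes and 60 of 19057 named genes. The choice used names only and no measured value.

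The RNA came from splenic Gr-1+ (Ly6G+) cells, named for a surface antigen of granulocytes, isolated on day 7 after bone marrow transplantation at a purity above 97%, to find pathways that IDO1, the first enzyme of tryptophan breakdown, regulates in myeloid cells. Each of 3 groups had 3 arrays. The syngeneic group came from C57BL/6 (B6) recipients without graft-versus-host disease, the WT group from C57BL/6 (B6) allogeneic recipients, and the KO group from allogeneic recipients of the strain B6.129-Ido1tm1Alm/J (IDO KO). The labels used here give no donor strain, age or sex, do not say whether the sorted cells were of donor or host origin, and do not say whether the arrays of a group were separate animals. P-values thus set a difference between groups only against the spread among arrays within groups, shared over all 3 groups, and that spread may be technical.

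Per the labels, syngeneic and WT arrays shared 1 chip and the KO arrays lay on another. In both comparisons with KO, the effects of chip and genotype cannot be told apart. KO vs syngeneic also sets allogeneic against syngeneic recipients, so the effect of the transplant cannot be told apart there either. WT replicate 2 stood apart from its group, with a mean correlation over genes of 0.919 with WT replicates 1 and 3. The summed signal of 10 T cell markers was 60211 on it, against 7904 and 8130 on WT replicates 1 and 3, 11740 to 12277 in syngeneic and 14540 to 25543 in KO cells, with Cd8a and Cd5 not above background on enough arrays to be tested. Cd8b1 differed little over the 9 arrays (4434.5 to 5865). It gave most of the sum on WT replicates 1 and 3 (5298.5 and 5567), so the sums understate the differences of the other T cell markers. For 9 erythroid markers the sum was 58917 on WT replicate 2, 10932 and 10137 on the other WT arrays, 65700 to 66931 in syngeneic and 2246 to 9898 in KO cells. These markers went both ways on WT replicate 2. Hba-a1, Slc4a1 and Alas2 lay below every syngeneic array (Slc4a1 9962 against 18399 to 19773). Epor, Klf1, Ermap, Ank1, Rhag and Tfrc lay above every syngeneic array (Klf1 1285 against 389 to 460). The 13 mature neutrophil markers tested summed to 58554 on WT replicate 2 and to between 188299 and 209896 on the other 8 arrays. Ly6g itself has no probe named here. The 10 monocyte and macrophage markers summed to 71529 to 73787 in syngeneic, 3196 to 9937 in WT and 18305 to 22891 in KO cells. Fewer cells of a type and less RNA per cell cannot be told apart in such bulk samples, and the part of these cell markers in the results below was not tested. Leaving out WT replicate 2 removes the odd array but not the marker differences between groups. Without it, 9 of the 10 T cell markers rose in KO vs WT (median log2 fold change 2.05). Of the 10 monocyte and macrophage markers 6 rose and 1 fell (1.09). Of 13 neutrophil markers 2 rose and 1 fell (0.18), and of 9 erythroid markers 0 rose and 2 fell (-0.18). Over all genes 10.2% rose and 9.78% fell.

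Of the 60 Trim genes, 33 had a probe above the background limit, a signal of 14.3, on at least 3 of the 9 arrays and were tested, and none of these 33 was above the limit in 1 group alone. The other 27 were too dim to test. They include the muscle members Trim54, Trim63 and Trim72, the chromatin member Trim66, Trim71, which carries an NHL domain, the interferon-linked Trim12c and Trim38, and Trim58, a ligase of late red cell precursors, whose brighter probe gave 23.9, 28.4 and 10.3 in syngeneic, 11.4, 11.3 and 3.4 in WT and 4.9, -0.9 and 2.6 in KO cells. The rest of the dim members were Trim7, Trim13, Trim15, Trim17, Trim29, Trim31, Trim40, Trim42, Trim43a, Trim43b, Trim47, Trim50, Trim52, Trim60, Trim61, Trim62, Trim68, Trim75 and Trim80.

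KO vs WT addressed the effect of IDO1 in the allogeneic hosts. Of the interferon-linked members 1 passed the test, Trim34a, which was higher in KO cells. Of the 33 genes tested 1 rose and 0 fell, where 2.01% of all 10872 genes were called, 1.18% higher and 0.828% lower. At an unadjusted p under 0.05 in limma there were 9 Trim genes. The share over all genes at that threshold is not given here, and the 2.01% is no background for it. The median log2 fold change in KO vs WT was 0.06 for the Trim genes and -0.02 for all genes. KO and WT arrays did not overlap for 9 Trim genes, with KO higher for 8 and lower for 1. Of all genes 23.4% did not overlap, 10.8% with KO higher and 12.6% with KO lower. Of the 11 tested genes on the list of interferon and antiviral members, 7 were separated upwards in this way and all 11 had a log2 fold change above 0, between 0.02 and 0.95 with a median of 0.49.

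Trim34a is a mouse relative of the human interferon-induced gene TRIM34. The syngeneic arrays read 399, 367 and 381, the WT arrays 370.4, 245 and 376.5, and the KO arrays 519, 674 and 702 (signal intensity, replicates 1 to 3 in order). Every KO array was above every array of the other groups, whose ranges overlapped each other. The KO vs WT log2 fold change was 0.82 ± 0.16 (SE, n = 3 arrays per group, limma adjusted p = 0.0461), or 1.77-fold. A second probe of the gene read 403, 595 and 523 in KO against 326.5, 219.9 and 371 in WT cells, also without overlap, and did not pass (0.63, adjusted p = 0.108 over all probes). The call was narrow. It ended in 13 of 19 alternatives, among them the omission of any syngeneic array, of WT replicate 1 or 3, or of KO replicate 2 or 3, with adjusted p between 0.000103 and 0.241 over all 19. Without WT replicate 2 the log2 fold change was 0.66 ± 0.11 (adjusted p = 0.00189).

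**Figure D1:**
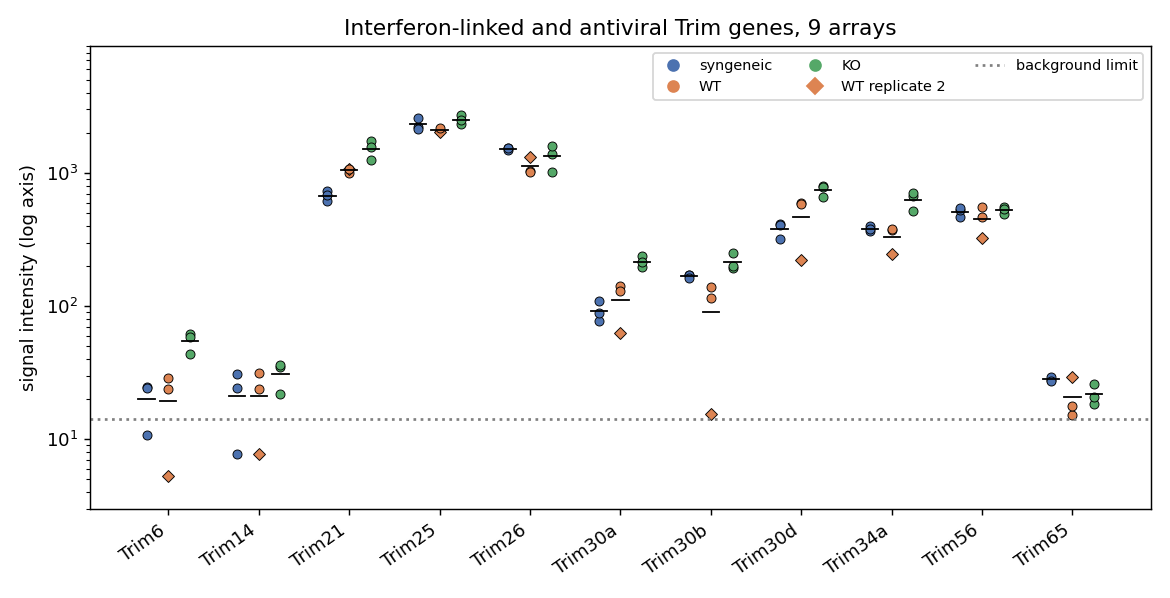
Signal intensity (log axis) of the 11 tested interferon-linked and antiviral Trim genes on each array, with 1 point per array, diamonds for WT replicate 2, short lines for group means and the dotted line for the background limit. The KO points lie higher than all WT points for Trim6, Trim21, Trim25, Trim30a, Trim30b, Trim30d and Trim34a, and WT replicate 2 is the lowest of the 9 arrays for Trim6, Trim25, Trim30a, Trim30b, Trim30d, Trim34a and Trim56.

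Trim34a sits in a run of Trim genes on chromosome 7. From Trim6 to Trim30d the RefSeq annotation (GRCm38.p6) lists 11 protein-coding genes, of which 10 are Trim genes. The array names 6 of them, and 5 were tested: Trim6, Trim34a, Trim30b, Trim30a and Trim30d. This grouping by position was chosen after the values were seen, so the counts for it are a description and no test. By the brightest probe of each gene, all 5 had KO arrays above all WT arrays in KO vs WT, as had 10.8% of all genes. Their log2 fold changes ran from 0.50 to 0.95 with a median of 0.70. The 28 other Trim genes tested ranged from -0.32 to 0.49 with a median of 0.02, and 3 of them were separated upwards (Trim21, Trim23 and Trim25), near the share over all genes. Some genes of the run are close copies of each other. Probe sequences were not used here, so it is uncertain how far a probe also reads a neighbour such as Trim34b or Trim30c. Without WT replicate 2, 4 of the 5 rose, where 10.2% of all genes did. KO vs syngeneic uses the same KO arrays, so its values for this run are no separate support. There all 5 had KO arrays above every syngeneic array, as had 24.9% of all genes, and 3 of the 5 rose, where 5.09% of all genes did.

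Trim30a, which in mouse restrains Toll-like receptor signalling to NF-kB, read 77.1, 108.5 and 89.0 in syngeneic, 142, 62.6 and 129 in WT and 197.5, 236 and 215 in KO cells. KO arrays lay above all others, and WT replicate 2 lay below the range of the syngeneic arrays. KO exceeded WT by a log2 fold change of 0.70 ± 0.18 (adjusted p = 0.091, not called). Trim30d, its neighbour and close relative, read 322, 414 and 409 in syngeneic, 598, 222 and 584 in WT and 796, 781 and 655 in KO cells, again with KO above all others and WT replicate 2 lowest. Its difference was 0.69 ± 0.30 (adjusted p = 0.258). For Trim30b, another copy, the signals were 173, 173 and 163.5 in syngeneic, 115, 15.4 and 139.5 in WT and 195, 251 and 201 in KO cells, and the difference was 0.95 ± 0.30 (adjusted p = 0.15). Here WT cells were the low group, and WT replicate 2 was close to the background limit. On a second, dimmer probe of Trim30b the groups overlapped in KO vs WT (0.63 ± 0.26) and in KO vs syngeneic (0.37 ± 0.26). Trim6, which makes free ubiquitin chains used in interferon signalling, was dim. It read 24.9, 10.8 and 24.3 in syngeneic, 23.9, 5.3 and 29.1 in WT and 61.4, 43.8 and 58.9 in KO cells, with a difference of 0.50 ± 0.13 (adjusted p = 0.094). These values rest on 1 probe. The other probes of Trim6 were too dim to pass, and the brighter of them read 4.2, 7.9 and 14.3 in syngeneic, 3.3, 4.1 and 15.6 in WT and 3.6, 8.7 and -1 in KO cells.

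The promoters of these genes were searched for the core of the interferon-stimulated response element, a pair of GAAA blocks with NN (any 2 bases) between them, on both strands of the window from 250 bases before to 50 after the RefSeq start (GRCm38.p6). The core occurred in 3.44% of 32851 promoters, or in a promoter of 3.99% of 27025 genes, and in those of 7 of the 47 Trim genes with a promoter sequence, Trim2, Trim12c, Trim21, Trim26, Trim30a, Trim30d and Trim34a. A match is a description of letters and no evidence of binding. For Trim30a and Trim30d the 76 bases around the core were the same letter for letter, which is why they are shown once, with the core in capitals as it reads on the gene's strand (its reverse complement is the motif).
Trim30a (chr7:104465204-104465279, minus strand, bases -86 to -11) and Trim30d (chr7:104507865-104507940, minus strand, bases -91 to -16): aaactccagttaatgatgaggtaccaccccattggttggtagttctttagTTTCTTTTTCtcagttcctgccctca
The other 2 sequences belong to the genes called in KO vs WT and in WT vs syngeneic. In Trim21 and Trim34a the core lay just after the start, and 30 bases are shown for each. Trim21 holds 2 overlapping copies.
Trim21 (chr7:102565447-102565476, minus strand, bases 7 to 36): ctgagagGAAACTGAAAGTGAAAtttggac
Trim34a (chr7:104244457-104244486, plus strand, bases 1 to 30): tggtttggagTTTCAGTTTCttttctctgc
No such core was found for Trim6 or Trim30b. Only 24 of the 33 Trim genes tested had a promoter sequence, so this can also mean that no sequence was searched. The gamma-activated site, TTCNNNGAA, which reads the same on both strands, occurred in 8.3% of promoters, or in a promoter of 9.55% of genes, and in those of 5 of the 47 Trim genes (Trim15, Trim31, Trim38, Trim45 and Trim46), of which only Trim45 and Trim46 were bright enough to test.

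**Figure D2:**
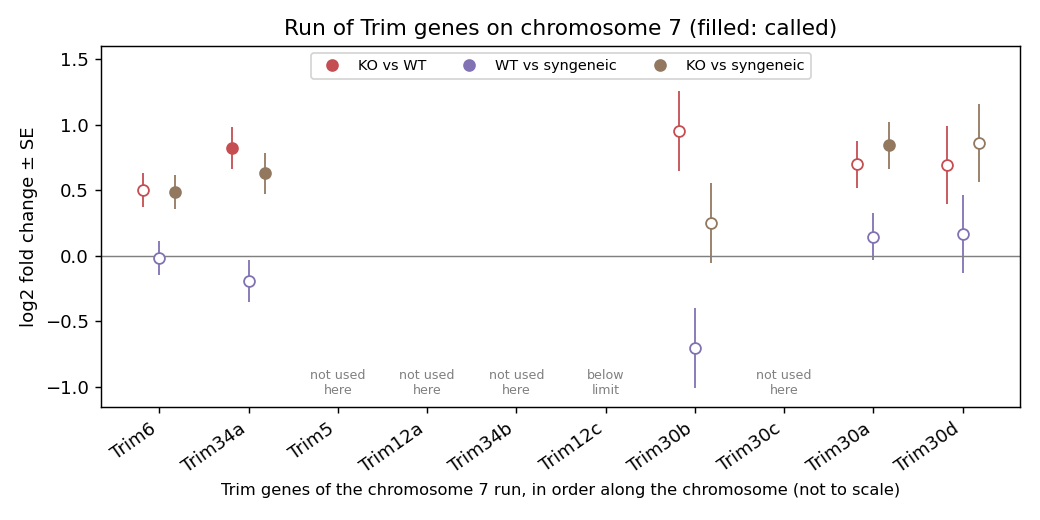
Log2 fold change ± SE (vertical axis) of the 5 tested genes of the chromosome 7 run, in their order along the chromosome, in the 3 comparisons; filled points passed the test. The KO vs WT points lie between 0.50 and 0.95, and the WT vs syngeneic points between -0.70 and 0.16.

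Outside the run, Trim21 showed the most regular pattern among the groups. It is a cytosolic antibody receptor that marks antibody-coated viruses for degradation. Signals of its brightest probe were 732, 616 and 683 in syngeneic, 1003, 1079 and 1071 in WT and 1244, 1733 and 1560.5 in KO cells. On this probe no 2 groups overlapped and WT replicate 2 lay with its group. Trim21 rose in WT vs syngeneic cells by 0.59 ± 0.12 (log2 fold change ± SE, adjusted p = 0.0216) and in KO vs syngeneic cells by 1.08 ± 0.12 (adjusted p = 0.00111), or 2.11-fold. Its difference between KO and WT, 0.49 ± 0.12, was not called (adjusted p = 0.0905, and 0.0153 without WT replicate 2, with a range of 0.00116 to 0.288 over 19 alternatives). A second probe gave 0.80 in KO vs syngeneic (adjusted p = 0.00947 over all probes) and 0.44 in KO vs WT (adjusted p = 0.153). In WT vs syngeneic it gave 0.36 with overlapping groups and did not pass (adjusted p = 0.157). On this second probe WT replicate 2 read 56.8, against 109.2 and 109.6 on the other WT arrays and 44.7, 57.7 and 64.8 in syngeneic cells. Another probe was above the limit on no array. The WT vs syngeneic call of the brightest probe ended in 6 of 19 alternatives, among them the omission of any 1 syngeneic array or of WT replicate 3.

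The remaining interferon-linked members had smaller differences. Trim25, which attaches ubiquitin to the RNA sensor RIG-I, read 2229, 2148 and 2583 in syngeneic, 2058, 2043 and 2167 in WT and 2314, 2707 and 2499 in KO cells. KO lay just above WT (0.25 ± 0.10, adjusted p = 0.214) and overlapped the syngeneic arrays. Trim26 was 1550.4, 1481 and 1533 in syngeneic, 1034, 1312 and 1011 in WT and 1024, 1397 and 1583 in KO cells. WT arrays lay below all syngeneic arrays (-0.43 ± 0.16, adjusted p = 0.133), and KO arrays overlapped both. Trim14, an adaptor at mitochondria that lacks the RING domain, Trim56, which has a role in sensing of cytosolic DNA and double-stranded RNA, and Trim65, a ligase for the RNA sensor MDA5, differed by 0.16, 0.23 and 0.02 between KO and WT, with overlapping groups and adjusted p of 0.568, 0.485 and 0.931.

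Without WT replicate 2, 6 Trim genes rose and 1 fell in KO vs WT, where 20.0% of all genes were then called, 10.2% higher and 9.78% lower, so the family as a whole stood near the background share. The genes that rose were Trim34a, Trim21, Trim30a (0.48 ± 0.10), Trim30b (0.54 ± 0.10), Trim6 (0.38 ± 0.10) and Trim32 (0.38 ± 0.09), and Trim3 fell by 0.41. Of the 11 interferon-linked genes 5 rose and 0 fell, with a median of 0.34. Leaving out the array lowered the log2 fold change of Trim30b from 0.95 to 0.54 and that of Trim30d from 0.69 to 0.30. Trim32, an NHL-domain ligase of muscle and other tissues, was called without the array and was near 0 with it. It read 304, 326 and 299 in syngeneic, 165.5, 507 and 194.5 in WT and 255, 232 and 274.5 in KO cells, and its KO vs WT value went from -0.03 to 0.38.

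**Figure D3:**
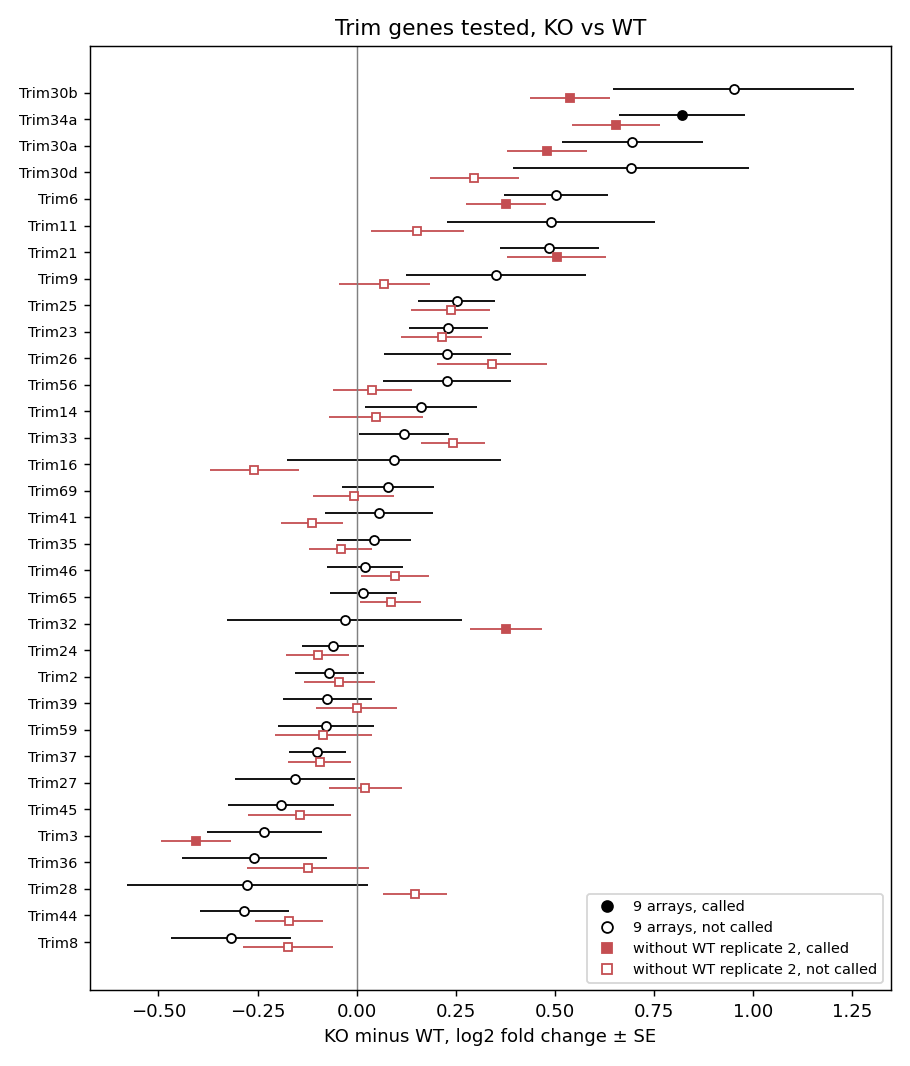
Log2 fold change of KO over WT ± SE (horizontal axis) for the 33 Trim genes tested, from all 9 arrays (black circles) and without WT replicate 2 (red squares); filled symbols passed the test. Trim34a alone is filled with 9 arrays, and 7 genes are filled without WT replicate 2.

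Of the 33 Trim genes, WT replicate 2 lay above both WT replicates 1 and 3 for 14 and below both for 17. It differed from their mean by more than 0.5 on the log2 scale for 12 of the 33, where 36% of all genes did. Trim28, also known as KAP1, the corepressor that silences retroelements through zinc finger proteins, read 7834 on this array against 3328 and 3099 on the other WT arrays, and 3448 to 3773 on the syngeneic and KO arrays. The highest T cell and erythroid marker sums among the WT arrays lay on the same array, and their part in these values was not tested. Trim28 differed by -0.28 ± 0.30 between KO and WT (adjusted p = 0.662) and by 0.15 without the array. In the other direction, Trim11 read 359 against 727 and 864, Trim16 48.0 against 181 and 164, and Trim9, mainly known from neurons, 3.8 against 68.6 and 52.2.

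**Figure D4:**
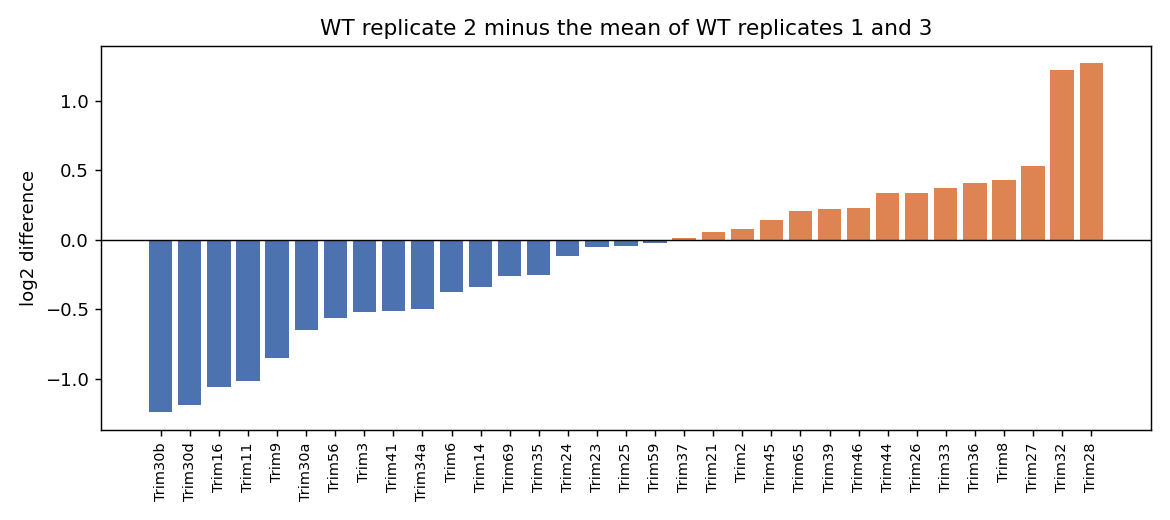
Difference between WT replicate 2 and the mean of WT replicates 1 and 3 on the log2 scale (vertical axis) for the 33 Trim genes tested. Bars run from -1.24 for Trim30b to 1.27 for Trim28.

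The chromatin cofactors did not pass in any comparison with 9 arrays. Besides Trim28 these were Trim33, a regulator of SMAD-dependent transcription, and Trim24, a nuclear receptor cofactor. Trim33 read 567, 586 and 584.5 in syngeneic, 410, 576 and 451 in WT and 490, 541 and 533 in KO cells. Its WT vs syngeneic value was -0.26 ± 0.11 (adjusted p = 0.194), and -0.38 ± 0.08 without WT replicate 2 (adjusted p = 0.00432, with a range of 0.000499 to 0.732 over 19 alternatives). Of 2 further passing probes of Trim33 neither went below 0 in WT vs syngeneic (0.04 and 0.06), so its probes disagreed. Trim24 was near the limit, at 8.0 to 18.3 over the 9 arrays, and above it on 0 of 3 KO arrays.

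WT vs syngeneic compared allogeneic with syngeneic recipients on 1 chip. Trim21, described above, was the 1 Trim gene that rose, and 0 fell, where 10.4% of all genes were called, 4.80% higher and 5.64% lower. At an unadjusted p under 0.05 in limma there were 5 Trim genes, a threshold for which no share over all genes is given here. WT arrays lay above the syngeneic arrays for 2 of the 33 genes, Trim21 and Trim37, and below them for 4, Trim3, Trim26, Trim30b and Trim41. Of all genes 38.5% did not overlap, 21.9% with WT higher and 16.6% with WT lower. Without WT replicate 2, Trim21, Trim30a and Trim30d rose and Trim26, Trim30b, Trim32, Trim33 and Trim41 fell, where 29.6% of all genes were called, 14.6% higher and 14.9% lower. Trim30a and Trim30d were then higher by 0.36 ± 0.10 and 0.56 ± 0.11. Trim30b was lower by 0.29 on its brightest probe (limma adjusted p = 0.0496). A second probe of Trim30b read 48.8 and 51.1 on WT replicates 1 and 3, within the range of the syngeneic arrays (53.9, 36.9 and 45). By their brightest probes the 3 Trim30 genes tested thus did not go the same way, but the probes of Trim30b disagreed. In this comparison 3 interferon-linked genes were above 0 and 8 below, with a median of -0.12, and of 0.001 without WT replicate 2.

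KO vs syngeneic shares its arrays with both comparisons above and is no independent repeat of either. Its groups differ in transplant, host genotype and chip at once. It gave 4 rises and 1 fall among the 33 genes, where 11.9% of all genes were called, 5.09% higher and 6.85% lower. All 4 rises were interferon-linked members, out of 11 tested: Trim21, Trim30a (0.84 ± 0.18, adjusted p = 0.0194), Trim34a (0.63 ± 0.16, adjusted p = 0.0388) and Trim6 (0.49 ± 0.13, adjusted p = 0.0476). Of these, Trim21 alone kept its call in all 19 alternatives. The Trim30a call ended in 5 of 19 alternatives, among them the omission of syngeneic replicate 1 or 3 or of KO replicate 2 or 3. The Trim34a call ended in 7 of 19, and the Trim6 call in 10 of the 18 that tested it. Those of Trim34a and Trim6 both ended without any 1 syngeneic array or KO replicate 2 or 3. That of Trim6 also ended without WT replicate 1 or KO replicate 1. Trim30d, at 0.86 ± 0.30, was not called (adjusted p = 0.108), and passed without WT replicate 2, an array outside this comparison that enters the shared estimate of the spread (adjusted p = 3.72e-05, with a range of 3.72e-05 to 0.292 over 19 alternatives). Without that array 7 Trim genes rose and 5 fell, where 39.3% of all genes were called, 19.3% higher and 20.0% lower. With all arrays, KO lay above every syngeneic array for 7 Trim genes and below for 8. Of all genes 49.3% did not overlap, 24.9% with KO higher and 24.4% with KO lower.

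Trim3, an NHL-domain ligase studied mainly in the brain, was the gene that fell. It read 213.5, 263 and 233 in syngeneic, 198, 122 and 209 in WT and 131, 139 and 143 in KO cells. KO arrays lay below all syngeneic arrays and WT arrays lay below them too, with KO and WT overlapping through WT replicate 2. The fall in KO vs syngeneic was -0.57 ± 0.15 on the log2 scale (adjusted p = 0.0408). The call ended in 12 of 19 alternatives, among them the omission of any 1 syngeneic array, of WT replicate 1 or of any 1 KO array. It also ended without background correction, with no filter on dim probes and with the mean of the gene's probes. Adjusted p ran from 0.000103 to 0.149 over all 19. A second, dim probe gave -0.05.

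The other 18 tested members passed in no comparison with 9 arrays. Trim8, a regulator of cytokine signalling, read 2531, 2122 and 2143 in syngeneic, 1789, 2527 and 1929 in WT and 1466, 1598 and 1882 in KO cells, so that KO lay below all syngeneic arrays (-0.45 ± 0.15, adjusted p = 0.1). Trim41 read 1490, 1481 and 1530 in syngeneic, 1261, 856 and 1228 in WT and 1210, 1127 and 1104 in KO cells, and syngeneic arrays lay above all others (KO vs syngeneic -0.37 ± 0.14, adjusted p = 0.131). Trim27, not called by its brightest probe (WT vs syngeneic 0.25 ± 0.15, adjusted p = 0.319), had a dimmer probe at 30.8, 38.5 and 28.6 in syngeneic against 72.2, 89.4 and 51.7 in WT cells, which was higher in WT by 0.46 ± 0.11 (adjusted p = 0.0312 over all probes). In KO vs syngeneic this dimmer probe was higher without overlap but did not pass (0.29 ± 0.11, adjusted p = 0.134). A further, bright probe of Trim27 was higher without overlap in WT vs syngeneic (0.34 ± 0.16, adjusted p = 0.198). The same held for it in KO vs syngeneic (0.33 ± 0.16, adjusted p = 0.217). Trim44 was above the limit on 3 of 3 WT arrays and on 0 of 3 KO arrays, which gave a difference of at least 1.16-fold (adjusted p = 0.225). Trim23, which joins its RING domain to an ARF-type GTPase domain, differed by 0.23 ± 0.10 between KO and WT (adjusted p = 0.258). A second, dimmer probe of Trim23 gave -0.06 ± 0.10 with overlapping groups, so its probes disagreed. Trim2, Trim9, Trim11, Trim16, Trim27, Trim32, Trim35, Trim36, Trim37, Trim39, Trim45, Trim46, Trim59 and Trim69 complete the tested set. For the 19 tested genes outside the interferon and chromatin lists, Trim3 included, the median was -0.07 in KO vs WT, -0.06 in WT vs syngeneic and -0.02 in KO vs syngeneic.

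Genes that work with TRIM proteins were read from lists chosen with earlier results of these data known. Among 19 tested genes of ubiquitin and ISG15 conjugation, 3 rose and 1 fell in KO vs WT, with a median of 0.07. Over all genes 1.18% rose and 0.828% fell, with a median of -0.02, which holds as the background for the next lists too. Isg15, a ubiquitin-like protein, Usp18, which removes it, and Uba7, the enzyme that activates it, rose by 1.53 ± 0.14, 1.29 ± 0.16 and 0.61 ± 0.11 (adjusted p = 0.00413, 0.00986 and 0.032). Ube2v1, a cofactor of the enzyme Ube2n that builds lysine-linked chains for RING ligases, fell by 0.89 ± 0.13 (adjusted p = 0.0214), from 909, 1045 and 903 in WT to 571, 446 and 440.5 in KO cells, with 488, 649.8 and 559 in syngeneic cells. Among 16 tested genes of nucleic acid sensing, 2 rose and 0 fell, with a median of 0.32: Irf7, a transcription factor of the interferon response, by 1.77 ± 0.24 and Dhx58, a relative of RIG-I, by 0.96 ± 0.19 (adjusted p = 0.0144 and 0.0482). Ikbke and Ddx58, a kinase of that pathway and RIG-I itself, differed by 0.93 ± 0.22 and 0.71 ± 0.17 without passing (adjusted p = 0.0734 and 0.0786). Among 18 tested genes of the type I interferon response, that is genes that interferon induces or signals through, 7 rose and 0 fell, with a median of 1.11, where that of the interferon-linked Trim genes was 0.49. Isg15, Usp18 and Irf7 are also on this list. Without WT replicate 2, where 10.2% of all genes rose and 9.78% fell, the counts were 3 up and 1 down for conjugation, 6 up and 1 down for sensing, and 14 up and 0 down for the interferon response. The conjugation counts were then near the share over all genes. Of the TRIM-type genes with other names, Pml, which builds nuclear bodies, and Mefv, which encodes pyrin, were tested, and their values of 0.18 ± 0.20 and 0.42 ± 0.47 did not pass.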

How the data were processed

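For each probe and array the deposited table gives an intensity together with its detection p-value. GenomeStudio is the tool in the submitters' processing notes, without a version. The authors' intensity values were already background-subtracted and quantile-normalized, as the values show: each array had the same upper quartile (102) and highest signal (47219), and 35.6% of signals lay at or below 0. A matrix of deposited log2 values holds the log2 of these same signals and was not used. The deposited detection p-values follow the signals only in part and served in 1 alternative.

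Here, intensities were corrected by normexp (offset 50), quantile-normalized and moved to the log2 scale. The model was a group mean for each of 3 groups over all 9 arrays (limma 3.58.1, R 4.3.3). A fold change is on the scale of offset intensities, which understates changes of dim genes. The background limit was the 95th percentile of 1619 probes of sensory receptor and keratin-associated genes (signal 14.3). Probes above it on 3 or more of 9 arrays were kept (20753), and the probe with the highest mean stood for each of 10872 genes. Adjusted p-values are Benjamini-Hochberg values over all of these genes, called at 0.05. Members, gene lists and tests were chosen with earlier results of these data known. Named genes are those called in any comparison and all tested interferon-linked and chromatin members, and of the partner lists at most 4 with the smallest p in KO vs WT. Trim8, Trim9, Trim11, Trim16, Trim23, Trim27, Trim32, Trim41, Trim44 and Trim58 are given with values outside this rule and were chosen after their values were seen, as was the promoter window of Trim30d. 1 Trim gene is not reported here. All 60 gene identifiers matched RefSeq, with 0 differing symbols. The procedure was tested on simulated data. Alternatives (19 per result) changed the correction, the filter, the choice of probe, the weights, the arrays in the fit and a replicate block. The number of arrays limits the precision.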

Additional observations from a re-analysis of the deposited data

How the results depend on the processing

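The counts of called Trim genes were small and depended on the processing, and the cause was not tested. Counts at an unadjusted p are given without the share over all genes at that threshold. In KO vs WT (1 called), 0 were called without background correction, with an offset of 16, with neqc on the detection p-values, with probes averaged per gene and with only the 6 arrays compared (limma's unadjusted p was under 0.05 for 7, 9, 8, 8 and 6). Array weights called 10, with 27.3% of all genes called. Leaving out 1 array gave 0 to 7, the 7 without WT replicate 2. In WT vs syngeneic (1 called), neqc gave 0 (limma's unadjusted p was under 0.05 for 6), array weights 14 and the omission of 1 array 0 to 8. In KO vs syngeneic (5 called), 3 were called without background correction, 3 with neqc and 3 with no filter on dim probes, 13 with array weights, 11 with only the 6 arrays compared, and 1 to 12 when 1 array was left out. Among the named genes, 0 called values changed sign. No clear pairing of the arrays by replicate number was seen: deviations of same-numbered arrays correlated between -0.167 and 0.111. The best match, among 3 arrays each time, had the same number in 8 of 18 cases. With 3 arrays per group and WT replicate 2 apart from its group, this check cannot exclude a pairing. With the replicate number as a block, 0, 0 and 2 Trim genes were called in KO vs WT, WT vs syngeneic and KO vs syngeneic (at an unadjusted p below 0.05, 7 and 4 in the first and second). Signals near the limit, as for Trim6, Trim14 and Trim24, limit what their fold changes show.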
